A study of Canis lupus familiaris with 12 samples.

Results

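Kidney tubule cells move inorganic ions, sugars, vitamins, organic anions and organic cations across their membranes by carriers of several families. The genes described here belong to those families, and not all of them are known from tubule cells. They were chosen by family, as every probe set whose annotation names a single gene of the solute carrier families SLC4A, SLC5A, SLC8A, SLC9A, SLC10A, SLC12A, SLC13A, SLC17A, SLC20A, SLC22A, SLC26A, SLC34A, SLC47A or SLCO, with SLCO2A1 left out. This gave 187 of 42924 probe sets, which name 94 of 15115 genes. The 94 genes were compared between 2 kinds of culture of MDCK II tet-off cells, an epithelial line established from dog kidney (Madin-Darby Canine Kidney) made for tetracycline-controlled expression, on 12 one-colour Affymetrix dog arrays. The 3D group (6 arrays) was multicellular cysts formed inside type I collagen, and the 2D group (6 arrays), the control condition, was cells spread as a flat sheet with type I collagen in 2D culture. Both groups were kept in the same serum-containing medium with G418 and were collected on day 8 by digesting the gels with collagenase. Each array carried RNA pooled from 4 separate samples, so the spread between arrays is that between pools of 1 cell line and leaves out the spread between single cultures. In RNA of whole cultures, fewer cells that express a gene and less RNA per cell cannot be told apart.

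As background, tubule cells transport solute by coupling it to the sodium gradient that the sodium pump sets up. Cotransporters such as those of the SLC5A, SLC13A, SLC20A and SLC34A families let sodium in together with glucose, vitamins, sulfate, carboxylates or phosphate, while SLC12A carriers couple chloride to sodium or potassium, and SLC4A and SLC26A carriers move bicarbonate and other anions. Organic anions and cations cross through SLC22A, SLC47A and SLCO carriers, many of them typical of the proximal tubule. MDCK cells grown as cysts move chloride and fluid into a lumen, which makes the carriers of chloride and bicarbonate part of that process.

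Most epithelial markers were strong and the markers of other cell types were weak on all arrays. Levels are log2(intensity + 1), and the control level of an array is the 95th percentile of 59 probe sets for bacterial and tag sequences that match no dog gene, 5.71 on average. A gene is called clearly above that level where it lay at least 2 log2 units, or 4-fold, over it on average, a limit chosen after the values were seen. Of 9 measured markers of tubule epithelium, 6 were clearly above it, and the summed intensity of the 9 was 31900 to 33700 in 3D and 26900 to 30400 in 2D. Of the 9, 3 rose (CDH1, KRT8 and KRT18) and 2 fell (CDH16 and PAX2). CDH1, PAX2 and GRHL2 were not clearly above the control level. None of the 17 markers of fibroblasts, leukocytes and endothelium was clearly above it. Of the 17, 0 rose and 6 (35.3%) fell, against 10.7% and 22.9% of all genes not clearly above it. Markers that define tubule segments were mostly weak as well: the thick ascending limb had 0 of 2 clearly above the control level, the proximal tubule 1 of 5 (CUBN), the distal convoluted tubule 1 of 3 (PVALB), principal cells 0 of 5 and intercalated cells 1 of 5 (FOXI1). All 5 of the proximal tubule fell, against 22.9% of all genes, and 3 of them are also carriers described here (SLC34A1, SLC5A2 and SLC22A6). LRP2, another of the 5, lay at or below the control level on 5 of the 3D and 4 of the 2D arrays. In the distal convoluted tubule 0 rose and 2 fell. In principal cells 1 rose (SCNN1B) and 2 fell, and in intercalated cells 1 rose (ATP6V1B1) and 2 fell. The actin and GAPDH controls give a 5-prime to 3-prime ratio, a sign of RNA integrity, and its mean log2 value was -0.54 ± 0.17 in 3D and -0.92 ± 0.14 in 2D (n = 6 arrays in both, ± SD; two-sided exact permutation test, p = 0.00866), and 3D replicate 2 (-0.88) lay within the 2D range. A fit that holds this ratio as a further term is called the ratio-adjusted fit. On the second principal component 3D replicate 2 and 2D replicate 6 lay farthest out.

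A few carriers with strong signal rose in 3D and many with weak signal fell slightly. Of the 94 genes, 10 rose, 29 fell and 55 did not pass (limma adjusted p under 0.05), against 19.8% of all genes that rose and 22.9% that fell. As percentages of the 94, these were 10.6% and 30.9%. In the ratio-adjusted fit 6 of the 94 rose and 4 fell, and 3 of the 29 lowered genes still passed. The median log2 fold change, 3D minus 2D, was -0.11 over the 94 genes and -0.05 over all genes. Changes ran between -0.38 and 1.36, and 1.5-fold was passed by 2 carriers that rose and by 0 that fell, against 4.8% and 1.03% of all genes. All 6 values in 3D lay above all 6 in 2D for 4 genes, against 13.2% of all genes, and below them for 7 genes, against 9.49% of all genes. Of the 187 probe sets, 21 rose and 51 fell, against 16.7% and 22% of all probe sets.

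The direction followed the level. Of the 15 carriers clearly above the control level, 7 rose and 2 fell, against 32.9% and 23% of all genes at that height. Of the other 79 carriers, 3 rose and 27 fell, against 10.7% and 22.9% of all genes at that height. Only 16% of the carriers were clearly above the control level, against 40.7% of all genes, and 13 carriers lay at or below it on all 12 arrays. The plot of change against level shows both classes.

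**Figure D1:**
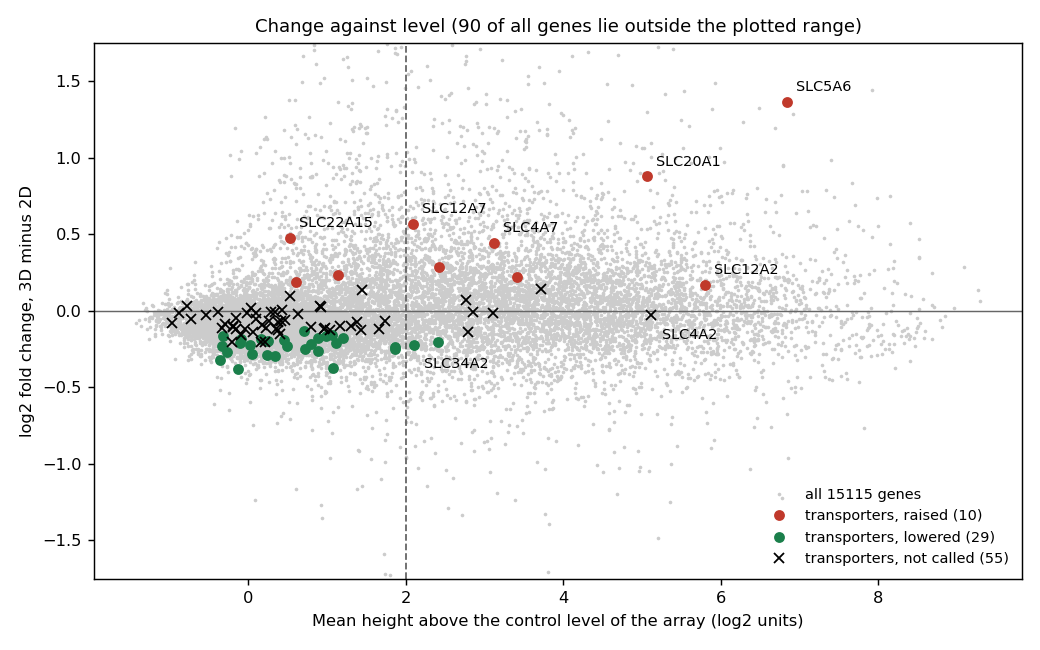
Change and level of 94 transporter genes and of all 15115 genes. The x axis is the mean height above the control level of each array in log2 units, the y axis is the log2 fold change, 3D minus 2D, and the dashed line marks 2 log2 units. Grey points are all genes, of which 90 lie outside the plotted range; 7 of the 10 raised carriers lie right of the line and 27 of the 29 lowered ones left of it.

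The largest change was that of SLC5A6, the sodium-dependent multivitamin transporter, which carries biotin, pantothenate and lipoate into cells. Its lowest, median and highest levels were 13.16, 13.25 and 13.28 in 3D, against 11.75, 11.85 and 12.12 in 2D. The groups lay far apart, and the 3D arrays were closely spaced. SLC5A6 rose 2.57-fold (log2 fold change 1.36, SE 0.06, limma adjusted p = 3.69e-11), which placed it 144th from the top among 15115 genes. Its other probe sets rose by 1.54 and 0.96 on the log2 scale (SE 0.08 and 0.07), and the call held under all 22 alternatives tried, with log2 fold changes between 1.28 and 1.41.

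Of the 10 other measured SLC5A genes, 0 rose and 4 fell, against 19.8% and 22.9% of all genes. SLC5A2, the low-affinity sodium-glucose cotransporter of the early proximal tubule, had levels of 7.28, 7.51 and 7.53 (lowest, median and highest) in 3D, against 7.52, 7.69 and 7.88 in 2D. The groups overlapped at their edges, and SLC5A2 fell by 0.24 on the log2 scale (SE 0.07, limma adjusted p = 0.0131), though not in the ratio-adjusted fit (-0.25, limma adjusted p = 0.141). Of its 3 probe sets, 2 fell. SLC5A1, the high-affinity sodium-glucose cotransporter, averaged 5.50 ± 0.13 in 3D and 5.62 ± 0.12 in 2D (SD over 6 arrays in each), near the control level in both. It did not pass (limma adjusted p = 0.177), while its other probe set, below the control level on average, fell by 0.19 (limma adjusted p = 0.0452). SLC5A3, the myo-inositol cotransporter that cells use to adjust to osmotic stress, averaged 6.10 ± 0.12 in 3D and 6.16 ± 0.14 in 2D (SD over 6 arrays in each), and did not pass either (log2 fold change -0.07, 95% interval -0.21 to 0.08, limma adjusted p = 0.450).

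Phosphate carriers included the second largest rise. SLC20A1, the widely expressed sodium-phosphate cotransporter PiT-1, had levels of 11.08, 11.18 and 11.36 (lowest, median and highest) in 3D, against 10.10, 10.30 and 10.64 in 2D. All 3D arrays lay above all 2D arrays. SLC20A1 rose 1.84-fold (log2 fold change 0.88, SE 0.08, limma adjusted p = 4.47e-07), its other probe set rose by 0.99 (SE 0.10), and the call held under all 22 alternatives.

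The related SLC20A2 averaged 6.82 ± 0.05 in 3D and 6.92 ± 0.13 in 2D (SD over 6 arrays in each), at -0.10 on the log2 scale (limma adjusted p = 0.192), and 1 of its 4 probe sets fell. The sodium-phosphate cotransporters of the SLC34A family reabsorb phosphate at apical membranes. SLC34A1, that of the proximal tubule, had levels of 6.56, 6.74 and 6.81 in 3D, against 6.87, 6.94 and 6.95 in 2D. These groups did not overlap, and SLC34A1 fell by 0.21 (SE 0.05, limma adjusted p = 0.00331), while its other probe sets did not pass. SLC34A2, known from lung and intestine, fell by 0.22 (SE 0.06, limma adjusted p = 0.00674), with levels of 7.57, 7.73 and 7.77 in 3D, against 7.73, 7.94 and 8.07 in 2D. The other SLC34A2 probe set, below the control level on average, did not pass (-0.04, limma adjusted p = 0.629). SLC34A2 was 1 of 2 carriers clearly above the control level that fell, at 2.10 log2 units over it. The other was SLC17A7, a vesicular glutamate transporter (log2 fold change -0.20). In the ratio-adjusted fit neither SLC34A1 (-0.14, limma adjusted p = 0.250) nor SLC34A2 (-0.12, limma adjusted p = 0.428) passed.

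**Figure D2:**
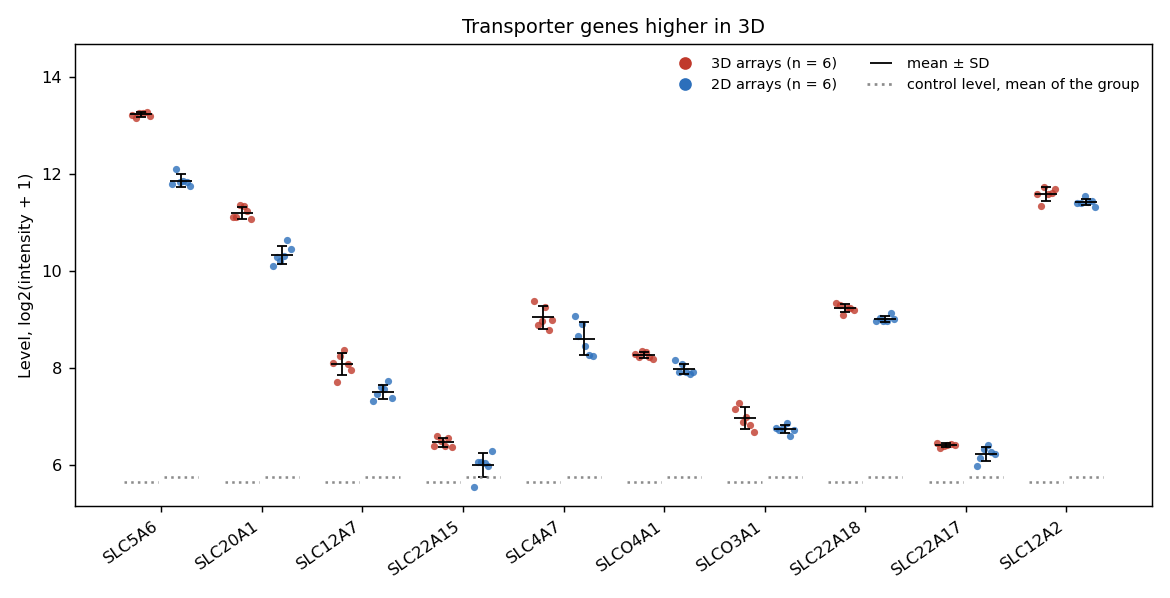
Levels of the 10 transporter genes raised in 3D, ordered by fold change, as log2(intensity + 1) on each array. For each gene the 6 arrays of 3D are on the left and those of 2D on the right, with the mean ± SD, and dotted lines give the mean control level of the group. The groups do not overlap for SLC5A6, SLC20A1, SLC22A15 and SLCO4A1, and overlap for the other 6.

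Among the chloride carriers, the potassium-chloride exporter SLC12A7 and the sodium-potassium-chloride importer SLC12A2 rose. SLC12A7, known as KCC4, had levels of 7.71, 8.10 and 8.37 (lowest, median and highest) in 3D, against 7.33, 7.52 and 7.73 in 2D. The lowest 3D array, replicate 2, lay just below the highest 2D array, and the other 3D arrays lay above all 2D arrays. SLC12A7 rose 1.48-fold (log2 fold change 0.57, SE 0.10, limma adjusted p = 0.000230), or by 0.64 without 3D replicate 2, and did not pass in the ratio-adjusted fit (0.41, limma adjusted p = 0.0726).

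SLC12A2, known as NKCC1, loads secretory epithelial cells with chloride across the basolateral membrane. It had strong signal throughout, with levels of 11.34, 11.61 and 11.73 in 3D, against 11.33, 11.42 and 11.55 in 2D. Again 3D replicate 2 was the lowest 3D array and lay inside the 2D range, while the other 3D arrays lay above all 2D arrays. SLC12A2 rose by 0.17 (SE 0.06, limma adjusted p = 0.0443), and its other probe sets rose by 0.29 each. The call ended without any 1 of 10 arrays (all but 3D replicate 2 and 2D replicate 3, with a limma adjusted p between 0.0598 and 0.105, log2 fold change between 0.14 and 0.17) and with quantile normalization (0.12, limma adjusted p = 0.124). Without 3D replicate 2 the rise was 0.22 (limma adjusted p = 0.00271), whereas the ratio-adjusted fit gave -0.04 (limma adjusted p = 0.812).

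Of the 7 measured SLC12A genes, 2 rose and 1 fell, against 19.8% and 22.9% of all genes. The 1 that fell was SLC12A8, close to the control level (log2 fold change -0.22, limma adjusted p = 0.00483). SLC12A1 and SLC12A3 are known for absorption in later tubule segments and SLC12A4 for cell volume control. SLC12A1, the furosemide-sensitive carrier of the thick ascending limb, lay at or below the control level on all 12 arrays, with a mean of 5.33 ± 0.14 in 3D and 5.34 ± 0.11 in 2D (SD over 6 arrays in each). SLC12A3, the thiazide-sensitive carrier of the distal convoluted tubule, averaged 7.08 ± 0.14 in 3D and 7.21 ± 0.16 in 2D (SD over 6 arrays in each; limma adjusted p = 0.20). The other SLC12A3 probe sets lay below the control level on average, and 1 of them fell by 0.18 (limma adjusted p = 0.0270). The potassium-chloride exporter SLC12A4, clearly above the control level, had a log2 fold change of 0.07 (95% interval -0.08 to 0.23, limma adjusted p = 0.449).

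Bicarbonate and anion exchangers went both ways. SLC4A7, the electroneutral sodium-bicarbonate cotransporter NBCn1, had levels of 8.78, 8.98 and 9.38 (lowest, median and highest) in 3D, against 8.24, 8.56 and 9.07 in 2D. The 2D arrays were widely spread and the groups overlapped. SLC4A7 rose by 0.44 (SE 0.14, limma adjusted p = 0.0195). Its other probe sets had log2 fold changes of 0.34 and 0.32 and did not pass (limma adjusted p = 0.101 and 0.160). The call ended with quantile normalization (0.35, limma adjusted p = 0.0628) and in the ratio-adjusted fit (0.05, limma adjusted p = 0.901).

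SLC4A2, the chloride-bicarbonate exchanger AE2 found in most epithelia, had strong signal that differed little between the cultures. Its levels were 10.73, 10.78 and 11.04 in 3D, against 10.74, 10.87 and 10.92 in 2D, with a log2 fold change of -0.03 (95% interval -0.15 to 0.09, limma adjusted p = 0.695), and 0 of its 3 probe sets passed. SLC4A1, the exchanger of red cells and of acid-secreting intercalated cells, had levels of 5.82, 5.91 and 5.98 in 3D, against 6.02, 6.15 and 6.40 in 2D, which did not overlap. It fell by 0.29 (SE 0.06, limma adjusted p = 0.00219), close to the control level in both, and did not pass in the ratio-adjusted fit (-0.23, limma adjusted p = 0.163). SLC4A4, the electrogenic bicarbonate carrier of the proximal tubule, lay at or below the control level on all 3D arrays and on 4 of 6 2D arrays, with means of 5.53 in 3D and 5.71 in 2D (limma adjusted p = 0.0292), and no fold is given. That call ended without any 1 of 6 arrays (2D replicates 2 and 4 and 3D replicates 1, 3, 4 and 5; limma adjusted p between 0.0534 and 0.0709). It also ended with quantile normalization (limma adjusted p = 0.164), median centring (0.0603) and the ratio-adjusted fit (0.596).

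Of 10 SLC26A genes, which exchange chloride, iodide, sulfate and bicarbonate, 0 rose and 3 fell, against 19.8% and 22.9% of all genes. SLC26A11, an anion carrier clearly above the control level, differed by 0.14 on the log2 scale and did not pass (limma adjusted p = 0.0574). The other SLC26A11 probe set, which was weaker, rose by 0.19 (limma adjusted p = 0.0301). SLC26A4, pendrin, the bicarbonate-secreting exchanger of intercalated cells, had levels of 5.44, 5.61 and 5.86 in 3D, against 5.59, 6.00 and 6.05 in 2D, and 5 of the 3D and 2 of the 2D arrays were at or below the control level. It fell by 0.28 (SE 0.09, limma adjusted p = 0.0175). SLC26A9, a chloride carrier of airway and stomach, lay at or below the control level on all 3D arrays and on 5 of 6 2D arrays, with means of 5.20 in 3D and 5.52 in 2D (limma adjusted p = 0.00849), and no fold is given. SLC26A2, the sulfate carrier that supplies sulfation of matrix glycans, averaged 6.65 ± 0.07 in 3D and 6.62 ± 0.18 in 2D (SD over 6 arrays in each; limma adjusted p = 0.808). The other SLC26A2 probe set, near the control level, rose by 0.18 (limma adjusted p = 0.0463). In the ratio-adjusted fit SLC26A4 (limma adjusted p = 0.508) and SLC26A9 (0.447) did not pass.

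**Figure D3:**
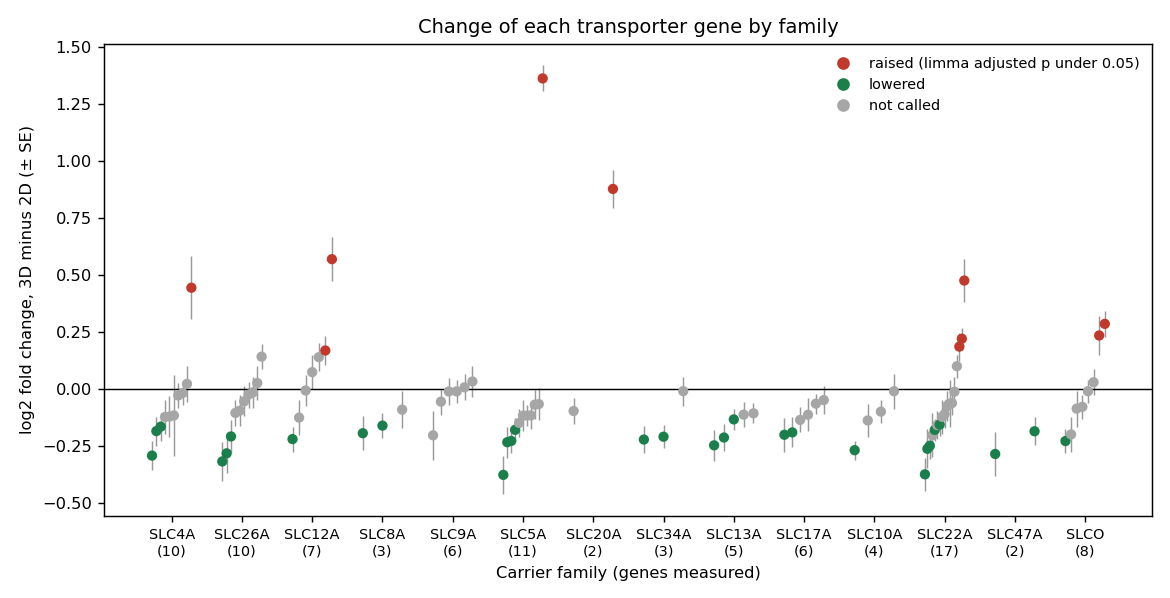
Log2 fold change, 3D minus 2D, of each of the 94 genes by family, with its standard error. Red points rose, green points fell and grey points did not pass (limma adjusted p under 0.05), and the number of genes measured stands under each family name. Points above 0.5 are SLC5A6, SLC20A1 and SLC12A7.

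None of the 6 measured sodium-hydrogen exchangers of the SLC9A family passed, with log2 fold changes between -0.20 and 0.03, and 0 of them had an unadjusted limma p under 0.05. SLC9A3, the apical exchanger that takes up sodium in the proximal tubule, averaged 5.40 ± 0.11 in 3D and 5.60 ± 0.29 in 2D (SD over 6 arrays in each; limma adjusted p = 0.142), at the control level on 11 of 12 arrays. Of the 3 sodium-calcium exchangers of the SLC8A family, 2 fell, against 22.9% of all genes. One of them, SLC8A1, lay at or below the control level on all 12 arrays (means 5.30 in 3D and 5.47 in 2D, limma adjusted p = 0.0258), so no fold is given. Its call ended without any 1 of 4 arrays (2D replicates 1 and 2 and 3D replicates 3 and 6; limma adjusted p between 0.0565 and 0.0646), with quantile normalization (0.175), median centring (0.0518) and the ratio-adjusted fit (0.130), and when 3D replicate 2 and 2D replicate 6 were both left out (0.0514).

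Among carriers of organic ions, 3 of 17 SLC22A genes rose and 5 fell, 2 of 8 SLCO genes rose and 1 fell, and both SLC47A genes fell, against 19.8% of all genes that rose and 22.9% that fell. SLC22A15, which carries ergothioneine and carnitine-like zwitterions, had levels of 6.38, 6.45 and 6.60 (lowest, median and highest) in 3D, against 5.54, 6.05 and 6.29 in 2D. The groups did not overlap, and 1 of the 2D arrays was at the control level. SLC22A15 rose by 0.47 (SE 0.09, limma adjusted p = 0.000871), and its call held under all 22 alternatives other than a floor of 1.5-fold, which it did not reach.

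SLC22A18, an organic cation carrier from an imprinted region, had levels of 9.11, 9.24 and 9.33 in 3D, against 8.97, 9.0 and 9.14 in 2D. It rose by 0.22 (SE 0.05, limma adjusted p = 0.00236), its other probe set did not pass (0.06), and the call ended with quantile normalization (0.13, limma adjusted p = 0.0559). SLC22A17, a receptor for lipocalin 2, had levels of 6.35, 6.42 and 6.47 in 3D, against 5.99, 6.26 and 6.41 in 2D. It rose by 0.18 (SE 0.06, limma adjusted p = 0.0274), but the mean over its 3 probe sets differed by 0.03 (limma adjusted p = 0.599). Its call also ended without any 1 of 4 arrays (2D replicates 1 and 2 and 3D replicates 1 and 5; limma adjusted p between 0.05 and 0.0605, log2 fold change between 0.14 and 0.18) and in the ratio-adjusted fit (0.22, limma adjusted p = 0.157).

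SLCO4A1, a carrier of thyroid hormone and prostaglandins, had levels of 8.19, 8.26 and 8.35 in 3D, against 7.89, 7.93 and 8.17 in 2D, which did not overlap. It rose by 0.28 (SE 0.06, limma adjusted p = 0.000826), its other probe set rose by 0.51, and in the ratio-adjusted fit it did not pass (0.17, limma adjusted p = 0.195). SLCO3A1, a carrier of prostaglandins and thyroxine, had levels of 6.69, 6.94 and 7.29 in 3D, against 6.60, 6.75 and 6.86 in 2D. Here 3D replicate 2 was the highest array. SLCO3A1 rose by 0.23 (SE 0.08, limma adjusted p = 0.0399), and the call ended without any 1 of 8 arrays (2D replicates 1, 2, 3, 5 and 6 and 3D replicates 1, 2 and 4; limma adjusted p between 0.0532 and 0.0923, log2 fold change between 0.17 and 0.24), with quantile normalization (0.0532), with array weights (0.0679) and when 3D replicate 2 and 2D replicate 6 were both left out (0.0940).

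Of these 10 raised carriers, 5 passed in the ratio-adjusted fit: SLC5A6, SLC20A1, SLC22A15, SLC22A18 and SLCO3A1. In that fit 4303 of all probe sets rose and 3624 fell. The part of RNA integrity in the changes was not tested beyond that fit, and the ratio itself differed with culture. The plot of single probe sets shows where those of 1 gene differed.

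**Figure D4:**
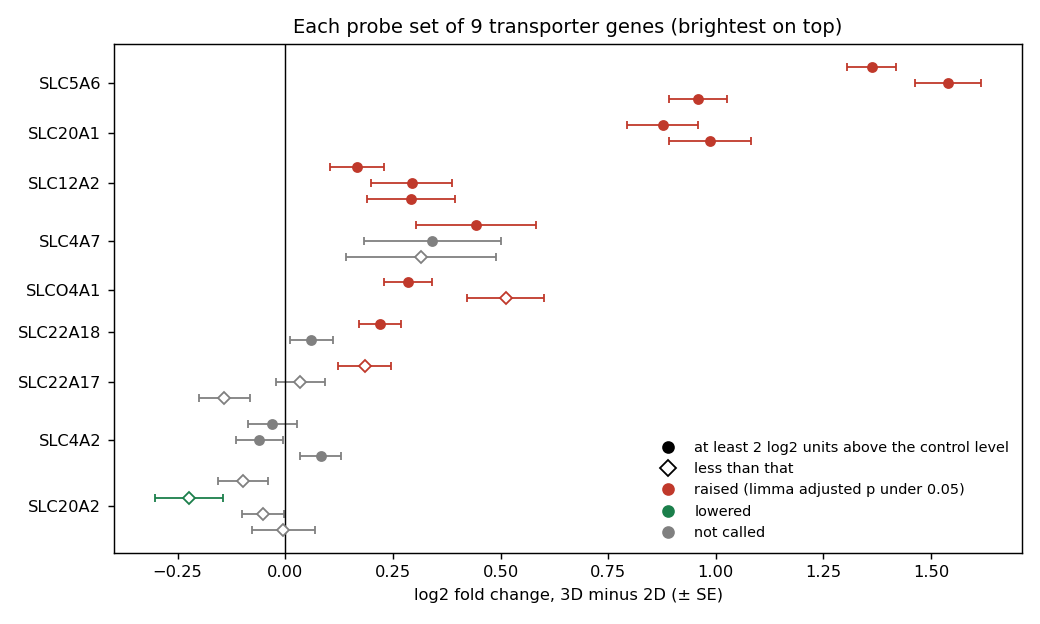
Log2 fold change, 3D minus 2D, with its standard error, for every probe set of 9 transporter genes, the brightest of each gene on top. Filled circles are at least 2 log2 units above the control level and open diamonds are lower, with red for raised, green for lowered and grey for not called. All probe sets of SLC5A6, SLC20A1, SLC12A2 and SLCO4A1 rose, 1 of 3 rose for SLC4A7 and SLC22A17, and 1 of 2 for SLC22A18.

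The carnitine transporter SLC22A5, clearly above the control level, did not pass. Its levels were 8.74, 8.80 and 8.94 in 3D, against 8.71, 8.77 and 9.01 in 2D (log2 fold change -0.01, 95% interval -0.15 to 0.12, limma adjusted p = 0.886). The organic ion carriers that define drug secretion by the proximal tubule were weak in both cultures. SLC22A6, the organic anion transporter OAT1, averaged 6.69 ± 0.07 in 3D and 6.85 ± 0.07 in 2D (SD over 6 arrays in each) and fell by 0.16 (SE 0.05, limma adjusted p = 0.0186), but did not pass with the mean of its probe sets (-0.14, limma adjusted p = 0.122) or in the ratio-adjusted fit (0.357). SLC22A8, OAT3, averaged 7.06 ± 0.16 in 3D and 7.14 ± 0.06 in 2D (SD over 6 arrays in each; limma adjusted p = 0.369), and passed as lower with the mean of its probe sets (-0.12, limma adjusted p = 0.0417). SLC22A2, the basolateral organic cation transporter OCT2, had levels of 6.31, 6.45 and 6.60 in 3D, against 6.40, 6.77 and 7.02 in 2D. It fell by 0.26 (SE 0.08, limma adjusted p = 0.0225), and the call ended when 3D replicate 4 (-0.23, limma adjusted p = 0.0563) or 2D replicate 1 (-0.21, adjusted p = 0.0502) was left out and in the ratio-adjusted fit (-0.35, limma adjusted p = 0.0932).

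The partners of OCT2 in cation secretion, the proton-coupled exporters SLC47A1 and SLC47A2, lay just above the control level and both passed. SLC47A1, MATE1, had levels of 5.69, 5.77 and 6.05 in 3D, against 5.77, 6.10 and 6.36 in 2D, and fell by 0.29 (SE 0.10, limma adjusted p = 0.0291). Its call ended without any 1 of 6 arrays (2D replicates 1, 4 and 6 and 3D replicates 1, 4 and 5; limma adjusted p between 0.0533 and 0.0672, log2 fold change between -0.28 and -0.23), with quantile normalization (0.0747) and in the ratio-adjusted fit (-0.06, limma adjusted p = 0.832). SLC47A2 fell by 0.19 (SE 0.06, limma adjusted p = 0.0243), which ended without any 1 of 4 arrays (2D replicate 2 and 3D replicates 1, 3 and 6; limma adjusted p between 0.0503 and 0.0608, log2 fold change between -0.18 and -0.16). It ended as well with quantile normalization (-0.11, limma adjusted p = 0.131) and the mean of its probe sets (-0.07, limma adjusted p = 0.275), and the ratio-adjusted fit gave 0.01 (limma adjusted p = 0.941).

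SLC22A12 is the urate transporter URAT1 of the proximal tubule. Its levels were 6.39, 6.63 and 6.66 in 3D, against 6.73, 7.0 and 7.17 in 2D, and the groups did not overlap. On average it lay 1.07 log2 units over the control level, so it was weak and not clearly above that level. SLC22A12 fell by 0.38 (SE 0.07, limma adjusted p = 0.000619), and the call held under all 22 alternatives other than a floor of 1.5-fold, which it did not reach, with log2 fold changes between -0.43 and -0.28. Its other probe set had -0.18 and did not pass (limma adjusted p = 0.0517), and both belong to the Affymetrix class whose probes several transcripts share. The probe sets that stand for 46 of the 94 genes are of that class, among them that of SLC20A1. SLC22A31, a carrier of unknown substrate, had levels of 7.32, 7.45 and 7.57 in 3D, against 7.53, 7.72 and 7.82 in 2D. It fell by 0.25 (SE 0.06, limma adjusted p = 0.00376) and did not pass in the ratio-adjusted fit (-0.12, limma adjusted p = 0.423).

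**Figure D5:**
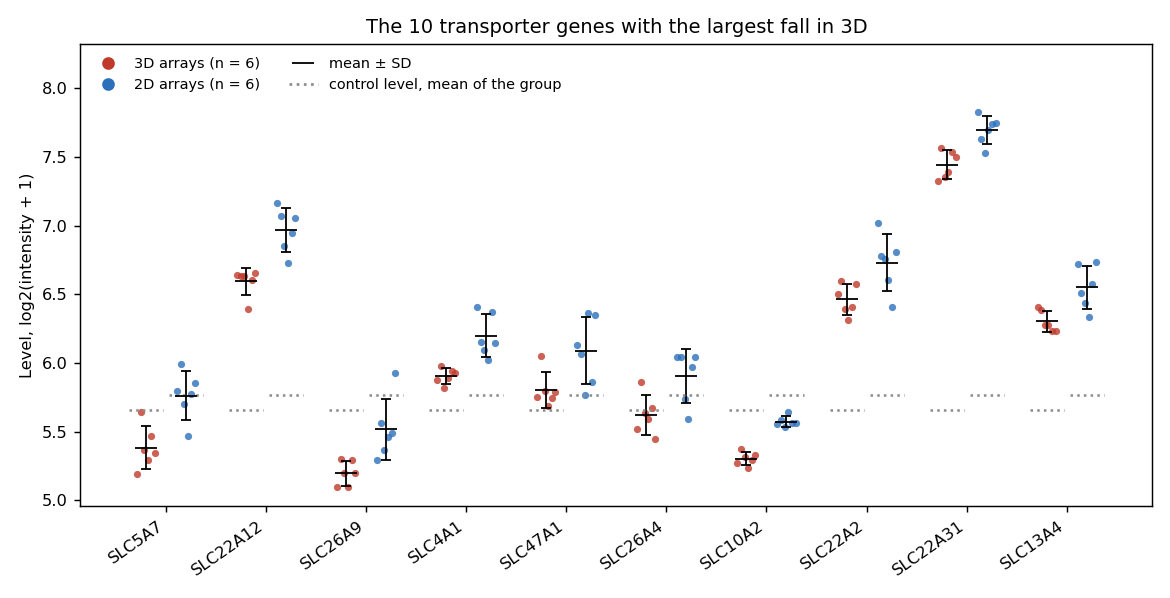
Levels of the 10 transporter genes with the largest fall in 3D, set in order of the difference of group means, as log2(intensity + 1) on each array. For each gene the 6 arrays of 3D are on the left and those of 2D on the right, with the mean ± SD, and dotted lines give the mean control level of the group. SLC22A12, SLC4A1 and SLC10A2 do not overlap between the groups, and SLC5A7, SLC26A9 and SLC10A2 lie at or below the control level on every 3D array, so that their place in the order has no meaning.

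The lowered carriers that follow were weak as well. SLC5A7, the choline transporter of cholinergic neurons, lay at or below the control level on all 3D arrays and on 3 of 6 2D arrays, with means of 5.38 in 3D and 5.76 in 2D (limma adjusted p = 0.00240, and 0.180 in the ratio-adjusted fit), and no fold is given. SLC10A2, the apical bile acid transporter of ileum and proximal tubule, lay at or below the control level on all 12 arrays, with levels of 5.24, 5.30 and 5.37 in 3D, against 5.53, 5.56 and 5.64 in 2D (limma adjusted p = 8.58e-05), so no fold is given although the groups did not overlap. SLC13A4, a sulfate carrier of placenta and brain, had levels of 6.23, 6.28 and 6.41 in 3D, against 6.33, 6.54 and 6.73 in 2D and fell by 0.25 (SE 0.07, limma adjusted p = 0.00923), though not in the ratio-adjusted fit (-0.21, limma adjusted p = 0.240). SLC13A3, which takes up succinate and other dicarboxylates at the basolateral membrane, averaged 6.35 ± 0.05 in 3D and 6.49 ± 0.07 in 2D (SD over 6 arrays in each) and fell by 0.14 (SE 0.05, limma adjusted p = 0.0270), a call that ended when 3D replicate 4 or 2D replicate 2 was left out (limma adjusted p between 0.0624 and 0.0636, log2 fold change between -0.12 and -0.11), with quantile normalization (0.0845), with median centring (0.0734) and in the ratio-adjusted fit (0.0538). The renal sulfate carrier SLC13A1 lay at or below the control level on all 12 arrays (means 5.46 in 3D and 5.57 in 2D, limma adjusted p = 0.0647), and passed as lower with the mean of its probe sets (limma adjusted p = 0.00497). The lysosomal sialic acid exporter SLC17A5, clearly above the control level, averaged 8.43 ± 0.11 in 3D and 8.57 ± 0.06 in 2D (SD over 6 arrays in each) and did not pass (limma adjusted p = 0.0591). It passed as lower in the ratio-adjusted fit (-0.28, limma adjusted p = 0.0214), with quantile normalization (-0.24, adjusted p = 0.00207), with the filter on low values (0.0475) and with a pseudocount of 16 (0.0487). The 19 lowered carriers outside the first 10 had log2 fold changes between -0.24 and -0.14, and 7 of all 29 lay at or below the control level on every 3D array.

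The control sequences were lower on average in 3D. Of the 17 markers of other cell types 6 fell, against 22.9% of all genes not clearly above the control level. Over the 79 carriers not clearly above the control level, the median level per array was 5.91 to 6.07 in 3D and 6.01 to 6.19 in 2D, a difference of -0.12 between the group means. The median of the 17 markers of fibroblasts, leukocytes and endothelium was 5.74 to 6.00 in 3D and 5.84 to 6.03 in 2D, a difference of -0.11. The mean of the 59 control probe sets was 4.93 to 4.99 in 3D and 4.97 to 5.08 in 2D, a difference of -0.06 (exact two-sided permutation p = 0.00866). The part of this shift in the lowered calls was not tested. Leaving out probe sets without a log2 value above 6 on at least 6 arrays left 56 of the 94 genes, of which 11 rose and 19 fell. That filter left 27359 of all probe sets, of which 6779 rose and 6896 fell.

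Genes that act on these carriers also went both ways. Of 29 measured scaffolds, kinases and enzymes of transporters, 8 rose, 10 fell and 11 did not pass, against 19.8% of all genes that rose and 22.9% that fell. PDZK1, a scaffold that holds apical carriers such as SLC34A1 and SLC22A12, had levels of 9.20, 9.34 and 9.86 (lowest, median and highest) in 3D, against 11.91, 12.22 and 12.35 in 2D. The groups lay far apart, and PDZK1 fell by 2.77 on the log2 scale (limma adjusted p = 5.91e-12). The membrane-bound carbonic anhydrases CA12 and CA14, which supply bicarbonate at the cell surface, rose by 1.04 and 0.97, and PDZD3, another scaffold of apical membrane proteins, rose by 0.93. Of 12 measured efflux pumps and peptide or bile acid carriers, 3 rose and 4 fell, against the same shares of all genes. The apical organic anion pump ABCC2 rose by 0.73 and ABCC1 by 0.46, while the drug efflux pump ABCB1 fell by 0.61 and the lysosomal peptide carrier SLC15A4 by 0.40. Of 3 measured sodium pump genes, ATP1B1 rose by 0.41, ATP1B3 fell by 0.34 and FXYD2 fell by 0.76.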

How the data were processed

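Values for 43035 probe sets on 12 arrays were analysed as deposited by the authors, 1 linear intensity per probe set and array. GCRMA, a background correction and summary method, is named without a version in the submitters' processing notes. Its settings, and whether values were scaled afterwards, are not known here. Precision is limited by the 6 arrays a group, since arrays have no depth. No columns were identical.

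The 111 control probe sets were left out, which left 42924, with no filter on low values. Genes were named from the platform annotation. Of the 94 member genes, 90 were found in the RefSeq genes of UU_Cfam_GSD_1.0 by identifier, all with the same symbol, which was used for names alone. The probe set with the highest mean stood for a gene. log2(intensity + 1) was fitted in limma 3.58.1 (lmFit, then eBayes; R 4.3.3), 3D minus 2D with the group as the only term, and p-values were adjusted by Benjamini-Hochberg over all 42924 probe sets at 0.05. A fold change on this scale understates that of dim genes. For a gene named with every array of 1 group at or below the control level, no fold is given. Array-wide measures were tested by two-sided exact permutation, enumerating 924 assignments. Plots come from matplotlib 3.10.9 (Python 3.11.15). The fit was tested on simulated data.

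The members, the lists and the rule for named genes were chosen with earlier results of these data known. The rule took up to 10 genes raised most and 10 lowered most among those called, 31 measured carriers by name, and up to 4 called genes of each further list. Other carriers that the rule names are not reported here. The alternatives were a filter on low values, quantile normalization, median centring, a pseudocount of 16, eBayes with trend and robust, weighting of arrays, a replicate block, the RNA ratio as covariate (the ratio-adjusted fit), leaving out each array or both arrays farthest out, a floor of 1.5-fold on the change, and averaging a gene's probe sets. Leaving out arrays for the RNA ratio itself was chosen after seeing the data.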

Additional observations from a re-analysis of the deposited data

Results flagged for a closer look

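In 6 of 82 groups of 6 values, 1 array stood apart from the other 5 by more than the 95% limit of Dixon's test, and chance gives this in about 1 in 20 groups. Of the 6, 3 concern 3D replicate 2. This array had an RNA control ratio of -0.88, with the next at -0.55, a SLC4A2 level of 11.04, with the next at 10.80, and a SLC47A1 level of 6.05, with the next at 5.80. 3D replicate 4 had a SLC22A12 level of 6.39, with the next at 6.60. 2D replicate 2 had a SLC5A6 level of 12.12, with the next at 11.85, still below all 3D arrays. 2D replicate 6 had a SLC9A3 level of 6.17, with the next at 5.61, the only array on which SLC9A3 was above the control level. The groups held the RNA control ratio and the carriers named by the rule. Part of those carriers were named for their calls, so 1 in 20 is a rough guide. SLC4A11 was outside these groups, with 8.50 on 2D replicate 6 and the next 2D array at 7.26. It did not pass (limma adjusted p = 0.622), while its other probe set rose by 0.54 (limma adjusted p = 5.55e-06).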

How the results depend on the processing

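Of 868 gene values under alternatives, 772 counted as the same, 84 lost their call, 10 gained one and 2 of called genes reversed direction. For genes not called, the same means the side of the threshold only, and their sign could change. With the RNA ratio as a covariate SLC12A2 turned to -0.036 and SLC47A2 to 0.012, 10 member genes were called (6 raised, 4 lowered) and 18 probe sets (11 raised, 7 lowered). The stricter filter left 19 lowered genes and 29 lowered probe sets, and quantile normalization 33 lowered probe sets. With a minimum of 1.5-fold, 2 genes and 5 probe sets were called, all raised, and 0 lowered. Leaving out 1 array gave 28 to 43 called genes (7 to 10 raised, 20 to 33 lowered) and 48 to 81 called probe sets (15 to 23 raised, 32 to 58 lowered), with the lowest number lowered without 3D replicate 4 and the highest without 3D replicate 2. The difference in the RNA ratio ranged from 0.3357 to 0.4396. Without both 2D replicate 6 and 3D replicate 2, 10 genes rose and 30 fell. Arrays of the same replicate number correlated between 0.000836 and 0.36, and 1 of 6 3D arrays was closest to the 2D array of its own number. The numbers were therefore not treated as pairs, and with the replicate block 39 genes were called (10 raised, 29 lowered) and 72 probe sets (22 raised, 50 lowered), with SLC13A3 at a limma adjusted p of 0.0558. The causes of these shifts were not tested.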
